A study of Mus musculus with 62 samples.

Results

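A set of 10 genes of amino acid transport and synthesis is described here in mouse gastrocnemius, a calf muscle of mostly fast fibres, of mice injected with melanoma cells or mock. They are the rows of the expression table whose symbol was Glul, Slc7a5, Slc7a8, Slc3a2, Slc1a5, Slc38a2, Slc38a4, Slc43a1, Asns or Psat1, which makes 10 of 47643 symbols. All 10 passed the filter on low values and were among the 12364 genes tested. The mice were females of 2 months at injection and were given 1 of 3 injections: cachectic melanoma cells (CAC), melanoma cells without this effect (NCAC), or mock (Con). Cachexia is the wasting of muscle and fat in some patients and animals with cancer. Muscle was taken 2, 4, 6 or 8 weeks later, with 5 libraries in each of the 12 groups except for 7 in CAC at 8 weeks. The titles of these 7 libraries are numbered with gaps, unlike those of the other groups, and the reason is not known here. The series design gives the mice as NCI Ath/nude and the sample labels give C57BL6/J, so the strain is not settled here. Nude mice lack most T cells, and the melanoma lines and the site of injection were not stated in the labels. The labels call the libraries of a group biological replicates without tying each to 1 mouse. The p-values thus measure a spread between libraries, estimated for each gene over all 12 groups and not only the 2 compared.

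Amino acids cross the muscle membrane through transporters of several families. Glutamine synthetase (Glul) joins ammonia to glutamate, and skeletal muscle is a main source of the glutamine in blood. SLC7A5 and SLC7A8 are the light chains of system L exchangers, which trade glutamine for leucine and other large neutral amino acids and need the heavy chain SLC3A2 to reach the membrane, while SLC43A1 carries branched-chain amino acids without a partner. SLC1A5, SLC38A2 and SLC38A4 take up small neutral amino acids with sodium, ASNS makes asparagine from aspartate and glutamine, and PSAT1 catalyses a transamination of serine synthesis. When amino acids run short, the transcription factor ATF4 binds CARE sites, and Asns is the textbook gene with such a site in its promoter.

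Depth was alike among the 62 libraries, at an estimated 40.12 to 48.96 M reads (M for mega; median 46.81), and 16690 to 18170 genes were above 0. Glul rested on 5068 to 65041 estimated reads per library, Slc38a2 on 3563 to 18837, Slc38a4 on 1276 to 6219, and Slc3a2 on 1011 to 3428. The least covered were Asns with 48 to 398 reads, Psat1 with 55 to 365 and Slc7a5 with 92 to 248. Genes of the mitochondrial genome took a mean of 32.58%, 28.56%, 24.91% and 24.15% of the TPM in CAC at 2, 4, 6 and 8 weeks and 33.05% to 34.1% in Con. TPM, a measure of transcript number scaled to the same total in every library, is a share per unit of transcript length, so the values of other genes move when such a large share moves. Changes are therefore given on TPM and also after median-ratio scaling, called rescaling here, which sets the median gene ratio of each library to a common reference. All 10 fibre markers of the muscle were present, with summed levels of 133680 to 181910 TPM in CAC at 8 weeks and 152730 to 177450 TPM in Con.

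In build mm10, Glul lies on chromosome 1 from 153899944 to 153909723, Slc43a1 on chromosome 2 from 84838850 to 84863594 and Asns on chromosome 6 from 7675169 to 7693254. Slc1a5 lies on chromosome 7 from 16781340 to 16798274, Slc7a5 on chromosome 8 from 121881150 to 121907694 and Slc7a8 on chromosome 14 from 54722209 to 54781946. Slc38a2 (96687392 to 96699730) and Slc38a4 (96994820 to 97055956) are neighbours on chromosome 15. Slc3a2 (8706882 to 8723369) and Psat1 (15904678 to 15947337) are on chromosome 19. The GENCODE annotation places genes on the opposite strand over part of Glul, Slc7a5 and Psat1, and the microRNA gene Mir8114 within Glul on the same strand. Whether the authors' values separate the strands was not stated in the labels.

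The promoters of 3 of these genes are shown because their transcripts gave the largest change against Con at 8 weeks (Glul), the smallest p there (Slc3a2) and the only match to a searched motif (Asns). They run from 250 bases before to 50 bases after the RefSeq start of transcription in GRCm38.p6, 5′ to 3′ on the strand of the gene, and capitals mark the match. Asns is at chr6:7693160-7693459 on the minus strand, Glul at chr1:153899679-153899978 on the plus strand and Slc3a2 at chr19:8713848-8714147 on the minus strand.
Asns: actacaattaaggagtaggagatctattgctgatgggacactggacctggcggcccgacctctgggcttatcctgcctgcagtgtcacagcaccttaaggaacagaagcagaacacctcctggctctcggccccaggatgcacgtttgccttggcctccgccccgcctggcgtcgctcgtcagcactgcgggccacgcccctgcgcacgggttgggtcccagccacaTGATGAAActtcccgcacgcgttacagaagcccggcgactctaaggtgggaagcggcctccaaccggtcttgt
Glul: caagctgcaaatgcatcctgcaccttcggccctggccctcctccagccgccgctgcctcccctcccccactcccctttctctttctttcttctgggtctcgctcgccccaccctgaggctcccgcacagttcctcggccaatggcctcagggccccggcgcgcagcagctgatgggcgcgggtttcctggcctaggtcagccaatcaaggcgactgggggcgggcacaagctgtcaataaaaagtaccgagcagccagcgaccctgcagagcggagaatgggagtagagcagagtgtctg
Slc3a2: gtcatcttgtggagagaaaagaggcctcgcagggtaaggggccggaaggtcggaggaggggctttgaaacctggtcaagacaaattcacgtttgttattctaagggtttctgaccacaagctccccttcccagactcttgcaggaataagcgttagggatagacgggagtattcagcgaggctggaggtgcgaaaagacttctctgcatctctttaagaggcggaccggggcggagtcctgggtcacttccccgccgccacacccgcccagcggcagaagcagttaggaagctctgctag
RefSeq gave 11 such promoters for 8 of the 10 genes, and none was used for Slc7a5 and Slc1a5. The core of the CARE site, TGATGNAA on either strand, was found in 1 of the 11, that of Asns, as TGATGAAA at bases 228 to 235 of the window. The match begins 23 bases before the start site. Of 32851 mouse promoters of the same length, 3.97% hold this core. The glucocorticoid response element (GNACANNNTGTNC, in 0.475% of all promoters), the FoxO element (GTAAACA, 3.65%) and the STAT element (TTCNNNGAA, 8.30%) were found in 0 of the 11. With 1 match in all, no motif overlapped another, and a match of letters describes the window and not the binding of a factor.

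In mock-injected muscle the levels of the 10 genes spanned from Glul, with a mean of 187.48 TPM over 20 libraries, to Psat1 with 1.46 TPM. Between them came Slc38a2 (34.05 TPM), Slc38a4 (22.86 TPM), Slc3a2 (17.44 TPM), Slc1a5 (14.64 TPM), Slc7a8 (6.22 TPM), Slc43a1 (3.72 TPM), Slc7a5 (2.16 TPM) and Asns (1.73 TPM). The ranges of neighbours in this order overlapped for every pair but Glul and Slc38a2. Across the 4 weeks in Con, 0 of the 10 genes passed limma's F test and 0 had an unadjusted p under 0.05, where 0.590% of all genes passed.

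**Figure D1:**
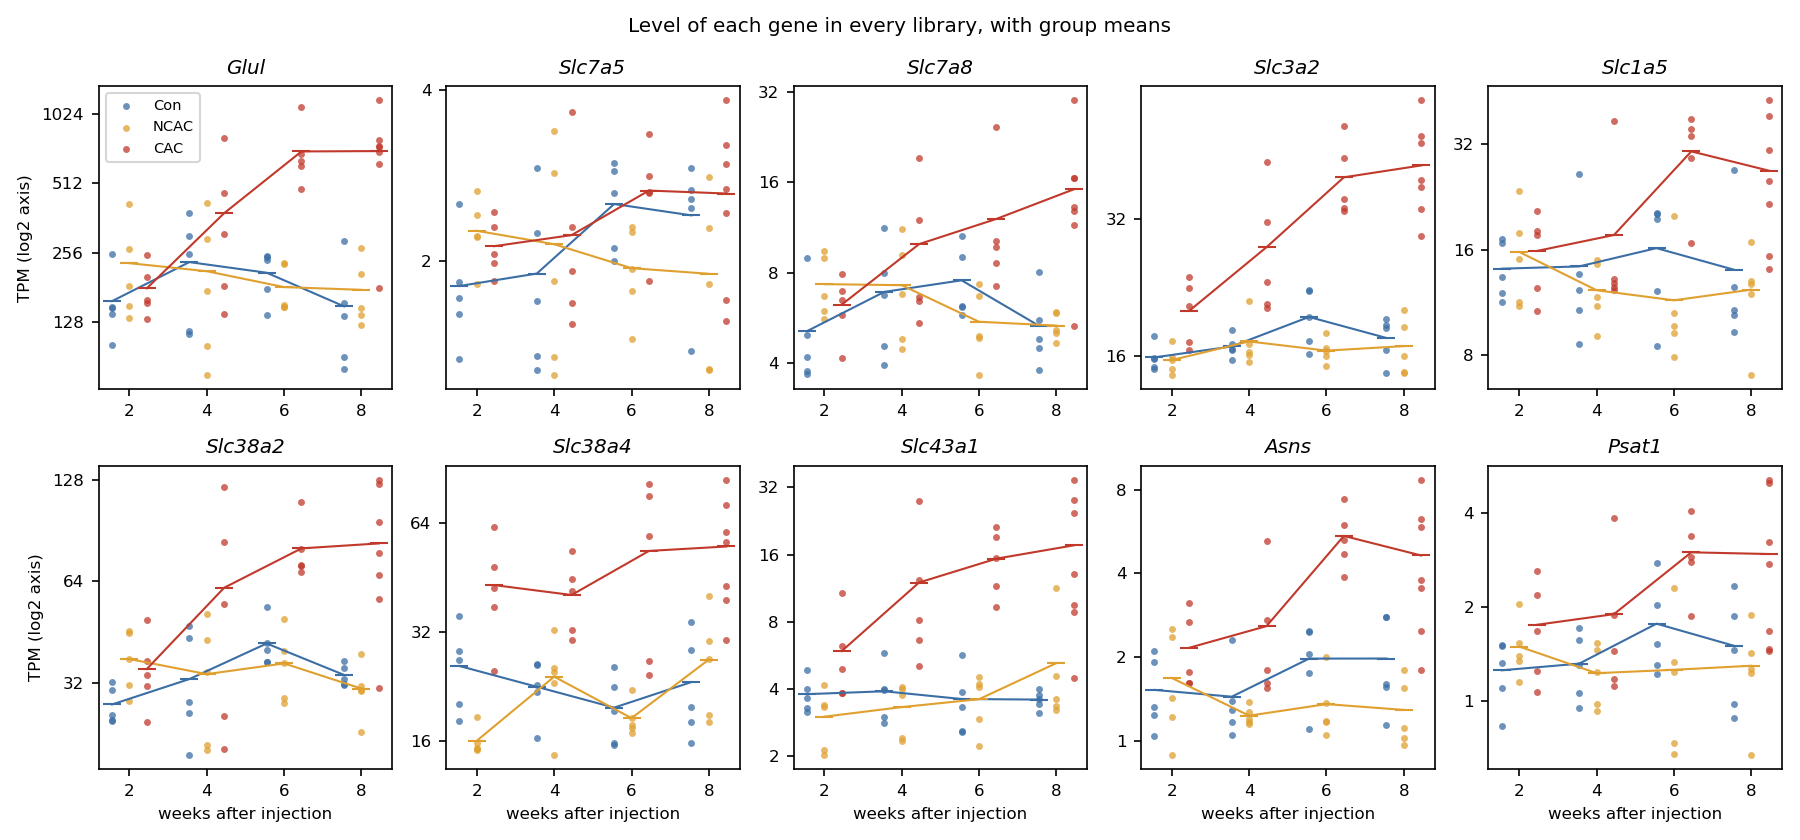
Level of each of the 10 genes in TPM (log2 axis) against weeks after injection, with a point for each library and a line through the group means. In CAC the Glul mean goes from 179 TPM at 2 weeks to 708 TPM at 8 weeks while the Con means lie between 150 and 233 TPM, and the Slc7a5 points of the 3 treatments overlap at every week.

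The comparison of CAC with Con asked how these genes stood at each stage of the tumour. At 2 weeks 0 of the 10 genes passed limma's test at an adjusted p of 0.05, where 0.267% of all genes were called higher. Their log2 changes lay between 0.14 and 0.70, and Slc3a2 and Slc38a4 had an unadjusted p under 0.05. At 4 weeks Slc3a2, Slc38a4 and Slc43a1 rose, 3 of 10 where 23.0% of all genes were called higher. At 6 weeks 8 of 10 rose against 51.8% of all genes, and at 8 weeks 9 of 10 rose against 65.3%. None fell, where 2.38%, 5.41% and 5.55% of all genes were called lower at 4, 6 and 8 weeks. Most genes were called higher at the late weeks, so the sizes are given beside the counts. The median change of the 10 genes was 0.30, 0.53, 0.94 and 1.16 at 2, 4, 6 and 8 weeks, beside 0.088, 0.17, 0.27 and 0.36 for all genes tested. In bulk muscle a change in the number of cells of a type and a change in RNA per cell cannot be told apart.

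After rescaling, which lowered the median change of all genes by 0.159, 0.268 and 0.339 at 4, 6 and 8 weeks, 2, 5 and 7 of the 10 genes remained called higher than in Con. The background fell to 7.56%, 14.3% and 22.0%, and at 8 weeks 22.6% of all genes were then called lower. The calls lost at 8 weeks were those of Slc1a5 (0.50, adjusted p = 0.0974 by limma) and Psat1 (0.31, adjusted p = 0.147). At 6 weeks Slc1a5, Slc38a2 (0.59, adjusted p = 0.103) and Psat1 lost theirs, and at 4 weeks Slc38a4 (0.61, adjusted p = 0.0918).

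**Figure D2:**
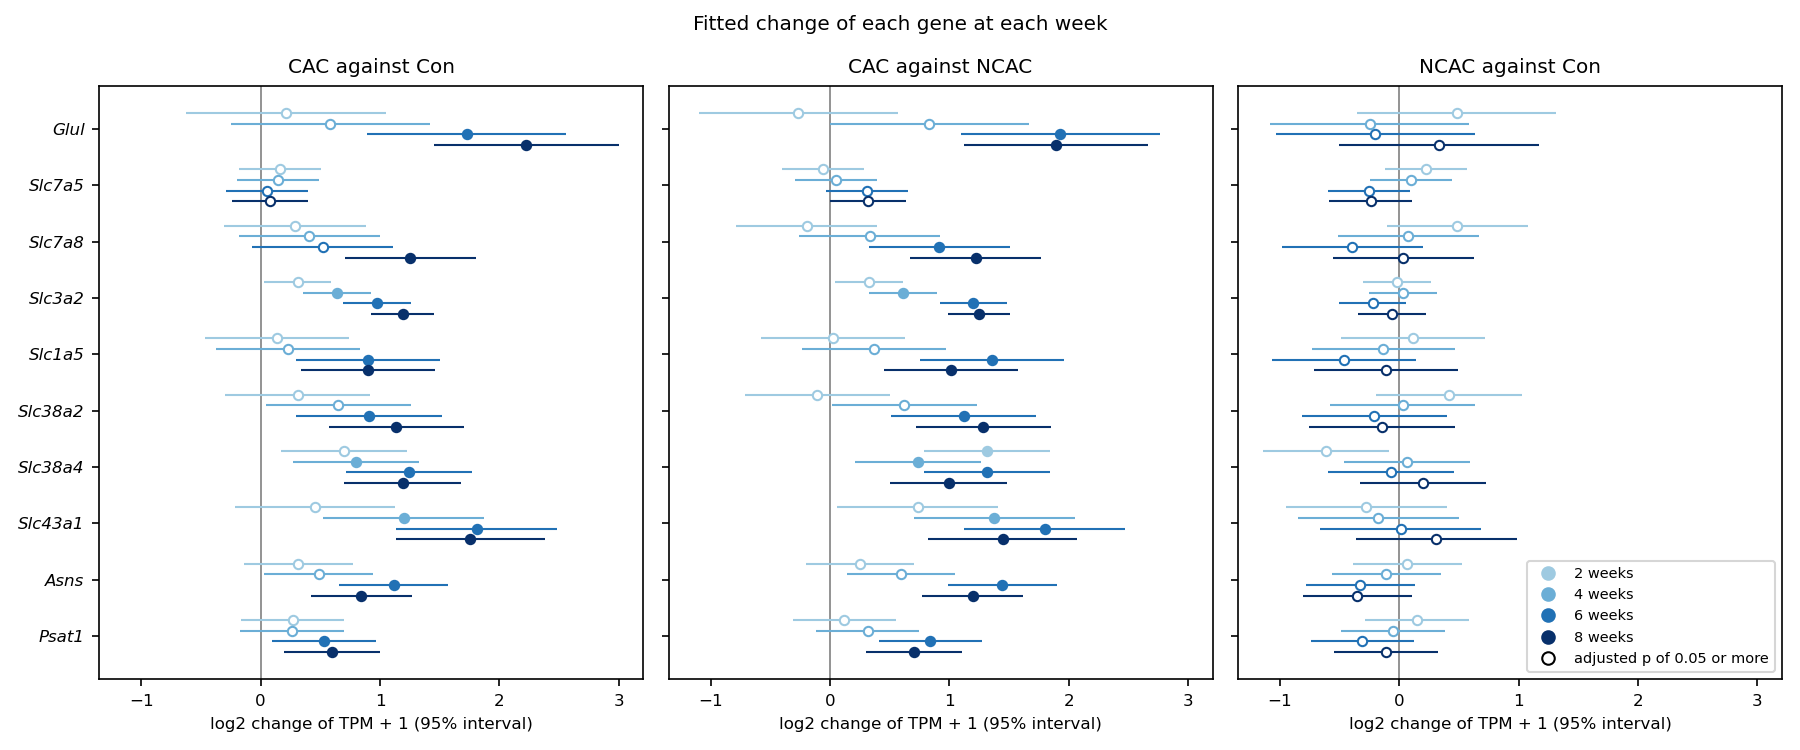
Fitted log2 change of TPM + 1 with its 95% interval for each gene and week, in CAC against Con, CAC against NCAC and NCAC against Con, where filled points passed an adjusted p of 0.05. In both comparisons of CAC, 9 genes are filled at 8 weeks and Slc7a5 is open, and every point of NCAC against Con is open.

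Glul, the enzyme that makes glutamine, had the largest change of the 10 genes against Con at 8 weeks. Its level in the 7 CAC libraries at 8 weeks was 181 TPM at the lowest, 735 at the median and 1183 at the highest, while Con gave 90.3, 79.9, 136, 154 and 288 TPM. Of the CAC libraries 6 were above every Con library, and replicate 3 was within the Con range. Glul rose by 2.23 on the log2 scale of TPM + 1 (SE 0.39, limma adjusted p = 3.36e-06; 1.81 after rescaling), a fold of 4.68. At 6 weeks the CAC libraries held 1104, 640, 483, 612 and 689 TPM and the Con libraries 178, 248, 245, 239 and 137 TPM, so the groups did not overlap. The change there was 1.73 (SE 0.42, adjusted p = 0.000698). At 4 weeks CAC was spread from 138 to 807 TPM and overlapped Con (114 to 380 TPM), and the change of 0.58 did not pass (95% interval −0.25 to 1.42, adjusted p = 0.290). At 2 weeks CAC had a mean of 179 ± 46.8 TPM and Con one of 158 ± 56.6 TPM (n = 5 each, SD), and the change was 0.21 (interval −0.62 to 1.05). Glul was 1 of the 2 genes whose difference from Con changed with the week (limma F test, adjusted p = 0.0309).

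Slc3a2, the heavy chain that anchors the system L light chains, moved with the least spread. At 4 weeks its level was 20.9, 42.9, 23.3, 31.6 and 20.4 TPM in CAC and 17.1, 16.5, 16.6, 15.7 and 18.2 TPM in Con, with every CAC library above every Con library. At 6 weeks CAC held 33.5 to 51.5 TPM and Con 16.2 to 22.4 TPM. At 8 weeks the CAC libraries had a lowest level of 29.4, a median of 39.1 and a highest of 58.7 TPM, against 19.3, 18.5, 16.5, 14.7 and 18.8 TPM in Con. The groups were apart at these 3 weeks. Slc3a2 rose by 0.64 at 4 weeks (SE 0.14, adjusted p = 0.00131), 0.98 at 6 weeks (adjusted p = 8.51e-07) and 1.19 at 8 weeks (SE 0.13, adjusted p = 4.92e-10, limma). Rescaling left changes of 0.45, 0.66 and 0.78, which also passed. At 2 weeks the groups overlapped, with 16.5 to 23.8 TPM in CAC and 15.0 to 17.7 TPM in Con, and the change of 0.31 had an adjusted p of 0.327. The difference of Slc3a2 from Con changed with the week (F test, adjusted p = 0.00984), and 12.1% of all genes (1497) passed this test. After rescaling neither Slc3a2 nor Glul passed it, and 527 of all genes did.

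Its light chains parted. Slc7a5, the light chain known from dividing cells and tumours, held 2.67, 2.92, 2.58, 1.39 and 2.48 TPM in Con at 8 weeks, and CAC ran from 1.57 to 3.85 TPM around a median of 2.68. The ranges overlapped, with 3 of the 7 CAC libraries above every Con library. The change was 0.08 (95% interval −0.24 to 0.40, limma adjusted p = 0.661) and became −0.21 after rescaling (adjusted p = 0.187), so its direction was not fixed by these data. Slc7a5 did not pass at any week against Con, with changes of 0.16, 0.15 and 0.05 at 2, 4 and 6 weeks. Slc7a8, the light chain of broad neutral amino acid range, rose at 8 weeks. Its Con libraries held 3.78, 5.55, 4.47, 4.80 and 8.02 TPM, and CAC ran from 5.33 through a median of 13.2 to 30.1 TPM. Of the 7 CAC libraries 6 were above every Con library. The change was 1.25 (SE 0.27, adjusted p = 9.17e-05). At 6 weeks 1 CAC library at 24.6 TPM stood above the others (7.24 to 10.2 TPM), and the change of 0.52 did not pass (interval −0.07 to 1.11, adjusted p = 0.125).

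Slc7a8 was above Slc7a5 in 62 of 62 libraries. The ratio of their TPM was 5.78 ± 2.23 in CAC at 8 weeks (SD, n = 7), 3.01 ± 0.751 in NCAC and 2.35 ± 0.928 in Con (SD, n = 5 each), and the CAC values of 3.00 to 9.39 overlapped both. Slc3a2 was above the summed TPM of the 6 light chains measured (Slc7a5, Slc7a6, Slc7a7, Slc7a8, Slc7a10 and Slc7a11) in 47 of 62 libraries. That sum was 37.6 ± 14.9 TPM in CAC (SD, n = 7) and 15.6 ± 2.91 TPM in Con (SD, n = 5) at 8 weeks. Slc7a6, the light chain of a glutamine and arginine exchanger, made up 12.1 TPM of the CAC sum and 4.32 TPM of the Con sum. These ratios and sums are descriptions and were not tested.

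Slc43a1, the carrier of branched-chain amino acids that works without a heavy chain, had the second largest change at 8 weeks and the largest at 4 and 6 weeks. At 4 weeks its level was 8.11, 27.8, 5.05, 12.3 and 6.66 TPM in CAC and 5.80, 3.95, 3.99, 2.82 and 2.99 TPM in Con, and 1 CAC library lay within the Con range. At 6 weeks it was 19.1, 21.2, 9.28, 15.5 and 11.6 TPM in CAC and 5.68, 3.88, 2.60, 2.57 and 3.32 TPM in Con. At 8 weeks CAC ran from 4.50 through a median of 13.1 to 34.7 TPM and Con from 3.13 to 3.99 TPM. No CAC library at 6 or 8 weeks was as low as any Con library. The changes were 1.20 (SE 0.34, adjusted p = 0.00906), 1.81 (SE 0.34, adjusted p = 4.05e-05) and 1.76 (SE 0.31, adjusted p = 4.85e-06, limma), and all 3 passed after rescaling. The CAC libraries differed among themselves by more than those of Con, with an SD of 11.4 TPM against 0.324 TPM at 8 weeks.

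Slc38a4, a sodium-coupled neutral amino acid transporter, was the only one of the 10 genes called against NCAC at 2 weeks. At 2 weeks it was at 37.5, 25.0, 48.4, 62.3 and 42.2 TPM in CAC, at 18.7, 15.3, 15.2, 15.2 and 15.9 TPM in NCAC and at 35.4, 28.3, 26.7, 18.1 and 20.3 TPM in Con. Every CAC library was above every NCAC library, and CAC overlapped Con. The change was 1.31 against NCAC (SE 0.26, adjusted p = 0.00458), in a comparison where 1.16% of all genes were called higher and 9.27% did not overlap in this direction. Without CAC replicate 4 it was 1.17 (adjusted p = 0.0509). Against Con it was 0.70 (adjusted p = 0.247). NCAC was lower than Con by 0.62 at 2 weeks with an unadjusted p of 0.0228 and an adjusted p of 1. Slc38a4 then rose over Con by 0.80 at 4 weeks (adjusted p = 0.0230), 1.25 at 6 weeks (adjusted p = 0.000183) and 1.19 at 8 weeks (SE 0.24, adjusted p = 4.11e-05, limma). At 6 weeks the CAC libraries fell into 3 high values (76.0, 81.9 and 58.8 TPM) and 2 near the Con range (24.3 and 26.6 TPM, with Con from 15.6 to 25.6 TPM).

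Slc38a2, the SNAT2 transporter whose transcript is known to respond to amino acid shortage, was at 110, 71.2, 79.9, 71.4 and 68.1 TPM in CAC at 6 weeks and 36.9 to 53.5 TPM in Con, without overlap. At 8 weeks CAC ran from 30.8 through a median of 77.5 to 128 TPM and Con from 31.7 to 37.1 TPM, and 1 CAC library was below all of Con. It rose by 0.91 at 6 weeks (SE 0.30, adjusted p = 0.0101) and 1.14 at 8 weeks (SE 0.28, adjusted p = 0.000427, limma). Its 4-week change of 0.65 did not pass (adjusted p = 0.102), with CAC libraries at 20.4, 121, 54.9, 83.9 and 25.5 TPM. Slc1a5, the glutamine carrier ASCT2, was at 33.7, 35.3, 16.7, 29.2 and 37.7 TPM in CAC at 6 weeks and 20.2, 12.2, 19.5, 8.48 and 20.4 TPM in Con. Of the CAC libraries 4 were above all of Con. It rose by 0.90 at 6 weeks (SE 0.30, adjusted p = 0.0102) and by 0.90 at 8 weeks (SE 0.28, adjusted p = 0.00385). The 8-week groups overlapped, with CAC from 14.1 to 42.9 TPM and Con from 9.27 to 27.1 TPM. Only 3 of the 7 CAC libraries were then above all of Con. Neither call of Slc1a5 held after rescaling, and the 6-week call was also lost without Con replicate 4 (adjusted p = 0.0541).

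The 2 synthesis enzymes were low. Asns was at 5.97, 5.29, 4.70, 3.88 and 7.41 TPM in CAC at 6 weeks and 2.49, 1.76, 2.47, 1.11 and 2.05 TPM in Con, with every CAC library higher. At 8 weeks CAC ran from 1.80 through a median of 3.80 to 8.69 TPM and overlapped Con (1.14 to 2.80 TPM). Asns rose by 1.12 at 6 weeks (SE 0.23, adjusted p = 0.000123) and 0.84 at 8 weeks (SE 0.21, adjusted p = 0.000476, limma), and both calls held after rescaling. Adding 1 TPM before the logarithm understates changes at such levels. Psat1 was at 3.37, 2.78, 1.87, 2.88 and 4.04 TPM in CAC at 6 weeks and 2.77, 1.22, 1.52, 1.30 and 2.03 TPM in Con, which overlapped. It rose by 0.53 at 6 weeks (SE 0.22, adjusted p = 0.0327) and 0.60 at 8 weeks (SE 0.20, adjusted p = 0.00763). Psat1 was the least firm of the calls at 6 weeks: 5 of the 10 refits that left out a library ended it, without CAC replicate 1 (adjusted p = 0.0747), CAC replicate 5 (0.0919), Con replicate 2 (0.0882), Con replicate 3 (0.0582) or Con replicate 4 (0.0795).

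Of the 10 genes, 5 had every CAC library above every Con library at 6 weeks (Glul, Slc3a2, Slc38a2, Slc43a1 and Asns), where 28.7% of all genes did. At 8 weeks 2 did (Slc3a2 and Slc43a1), where 25.7% of all genes did, and at 4 weeks 2 did (Slc3a2 and Slc38a4), where 15.6% did.

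The comparison of CAC with NCAC asked what set the cachectic tumour apart from a melanoma that does not waste muscle. It shares its CAC libraries with the comparison against Con. At 4 weeks Slc3a2 (0.61, adjusted p = 0.00378), Slc43a1 (1.38, adjusted p = 0.00606) and Slc38a4 (0.74, adjusted p = 0.0434) rose, 3 of 10 where 18.1% of all genes did. A fit of only these 2 groups called none of the 3 (adjusted p = 0.0607 to 0.0819). The call of Slc38a4 was also lost without CAC replicate 2, 4 or 5 or NCAC replicate 1, 3 or 4 (adjusted p = 0.0613 to 0.227). At 6 weeks 9 of 10 rose against 64.1% of all genes, and at 8 weeks the same 9 against 67.5%, with Slc7a5 left out both times. Glul was at 138, 124, 268, 206 and 147 TPM in NCAC at 8 weeks, and 6 of the 7 CAC libraries were above all of them. Its change was 1.89 at 8 weeks (SE 0.39, adjusted p = 3.43e-05) and 1.93 at 6 weeks (SE 0.42, adjusted p = 9.19e-05, limma). Slc3a2 was at 14.8, 16.0, 20.2, 14.7 and 18.5 TPM in NCAC at 8 weeks, below every CAC library, and its change was 1.25 (SE 0.13, adjusted p = 1.30e-10). Slc43a1 was at 3.21, 3.61, 11.3, 3.37 and 4.59 TPM in NCAC at 8 weeks, where replicate 3 lay within the CAC range, and its change was 1.45 (adjusted p = 7.11e-05). Slc7a8 rose by 0.91 at 6 weeks (adjusted p = 0.00580) and 1.22 at 8 weeks (adjusted p = 0.000121). The 6-week call of Slc7a8 was lost without CAC replicate 1 (0.64, adjusted p = 0.0543) and after rescaling (0.51, adjusted p = 0.131).

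The transporters with sodium coupling and the enzymes also rose over NCAC. At 8 weeks the change was 1.28 for Slc38a2 (adjusted p = 9.20e-05), 1.01 for Slc1a5 (adjusted p = 0.00123) and 0.99 for Slc38a4 (adjusted p = 0.000370). It was 1.20 for Asns (adjusted p = 3.99e-06) and 0.71 for Psat1 (adjusted p = 0.00172). At 6 weeks Asns held 3.88 to 7.41 TPM in CAC and 1.05 to 2.01 TPM in NCAC, and its change of 1.44 was larger than that of Slc38a4 (1.32), Slc1a5 (1.36) and Slc38a2 (1.12). Slc7a5 differed from NCAC by 0.32 at 8 weeks (95% interval 0.0031 to 0.64, adjusted p = 0.0647) and by 0.31 at 6 weeks (adjusted p = 0.102). At 8 weeks it passed without CAC replicate 3 (0.40, adjusted p = 0.0228), CAC replicate 5 (adjusted p = 0.0297), NCAC replicate 4 (adjusted p = 0.0465) or NCAC replicate 5 (adjusted p = 0.0202), and at 6 weeks without CAC replicate 3 (adjusted p = 0.0473). After rescaling its 8-week change was 0.02. At 6 weeks 6 genes had every CAC library above every NCAC library (Glul, Slc3a2, Slc38a2, Slc38a4, Slc43a1 and Asns), where 39.8% of all genes did. At 8 weeks 1 did (Slc3a2), where 24.5% did, and at 4 weeks 2 did (Slc43a1 and Asns), where 13.4% did. After rescaling, 2, 8 and 8 of the 10 genes were called higher at 4, 6 and 8 weeks, with 2.94%, 19.4% and 21.7% of all genes.

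NCAC did not differ from Con in any of the 10 genes by limma's test at 2, 4, 6 or 8 weeks. That is also so for all genes tested, of which 0% passed at each week. At an unadjusted p under 0.05 there was 1 of the 10 genes at 2 weeks (Slc38a4) and 0 at 4, 6 and 8 weeks, with 471, 224, 909 and 139 of all genes. The widest 95% intervals were those of Glul, from −0.35 to 1.31 at 2 weeks and −0.50 to 1.17 at 8 weeks, so a rise of 1 log2 unit lay inside both. The interval of Slc3a2 was −0.34 to 0.22 at 8 weeks. No difference of NCAC from Con changed with the week (0 of 10 genes, 0% of all genes by the F test).

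**Figure D3:**
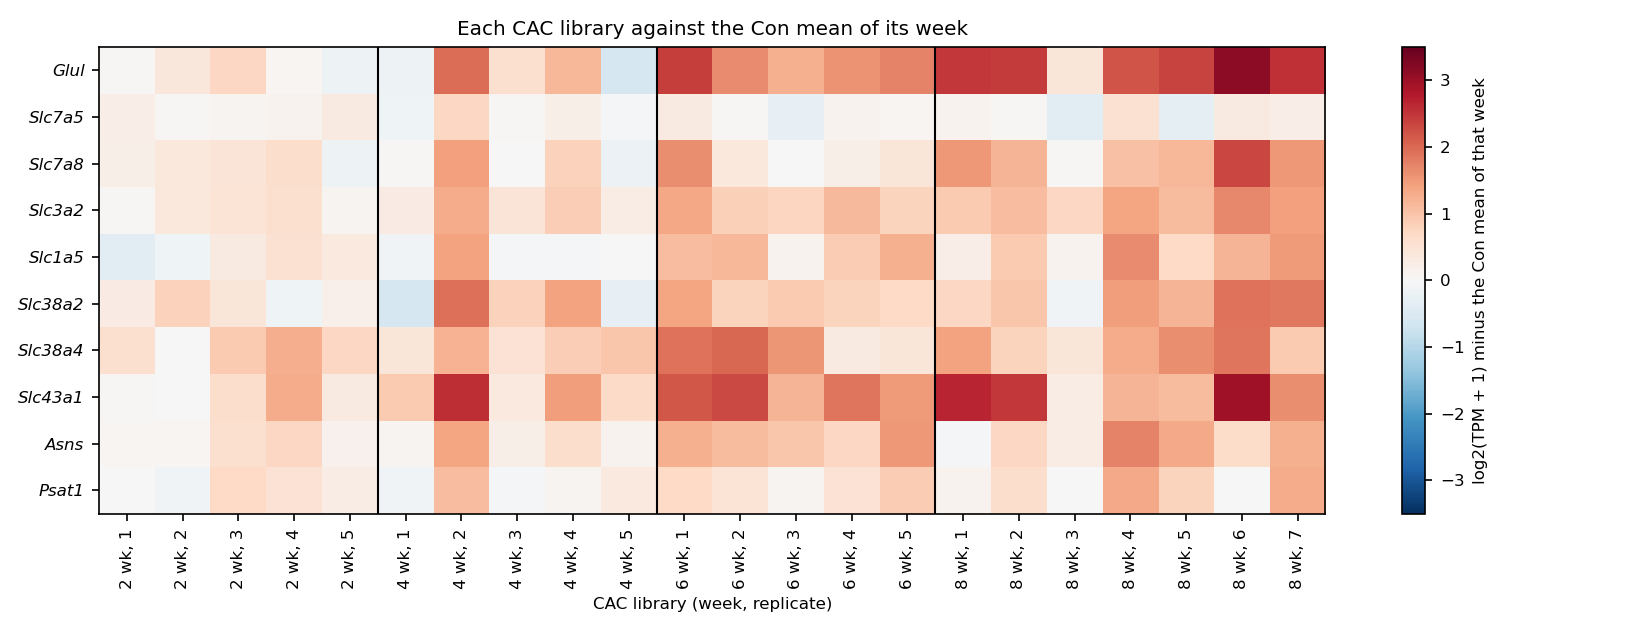
Difference of each CAC library from the mean of the Con libraries of its week, in log2 of TPM + 1, for the 10 genes in rows and the 22 CAC libraries in columns. Replicate 2 at 4 weeks is the darkest column of its week, and replicate 3 at 8 weeks is the palest of its week.

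Single CAC libraries moved in many of the 10 genes together. At 4 weeks replicate 2 was the highest CAC library in all 10. Without it the changes against Con were 0.47 for Slc3a2 (adjusted p = 0.0248), 0.70 for Slc38a4 (adjusted p = 0.119) and 0.85 for Slc43a1 (adjusted p = 0.109), so 1 of the 3 calls at 4 weeks remained. Against NCAC 0 of 3 remained without it, with 0.44 for Slc3a2 (adjusted p = 0.0644), 0.63 for Slc38a4 (adjusted p = 0.227) and 1.03 for Slc43a1 (adjusted p = 0.0880). The calls over all genes also went from 3134 to 758 against Con and from 2435 to 274 against NCAC without replicate 2. Genes of the mitochondrial genome took 24.55% of the TPM in replicate 2 and 28.05% to 32.56% in the other CAC libraries of that week. At 8 weeks replicate 3 was the lowest CAC library in 8 of the 10 genes. Its summed level of 6 erythroid markers, haemoglobin genes among them, was 17890 TPM, against 107 to 1769 TPM in the other 6 CAC libraries, and the part of this in its low values was not tested. Without replicate 3 Glul rose by 2.53 (adjusted p = 9.61e-08), Slc43a1 by 2.00 and Slc7a8 by 1.46, and the same 9 genes were called against Con. How many of all genes were highest in replicate 2 at 4 weeks or lowest in replicate 3 at 8 weeks was not counted.

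The libraries did not order the genes alike. At 8 weeks replicate 6 was highest in Glul, Slc7a8, Slc3a2, Slc38a2, Slc38a4 and Slc43a1, and replicate 4 in Slc7a5, Slc1a5, Asns and Psat1. In replicate 6 Glul was at 1183 TPM, Slc43a1 at 34.7 TPM and Psat1 at 1.45 TPM, the last being the lowest of the CAC libraries. In replicate 4 Psat1 was at 5.11 TPM, Asns at 8.69 TPM and Slc1a5 at 42.9 TPM while Glul was at 620 TPM. Summed macrophage markers were 652 TPM in replicate 4 and 184 TPM in replicate 6, within a range of 182 to 652 TPM in CAC. At 6 weeks the split was a different one, with replicate 1 highest in Glul, Slc7a5, Slc7a8, Slc3a2 and Slc38a2, replicate 2 in Slc38a4 and Slc43a1, and replicate 5 in Slc1a5, Asns and Psat1. The part of macrophages in these values was not tested.

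Markers of other cell types are given beside the 65.3% of all genes called higher in CAC than in Con at 8 weeks and the 23.0% at 4 weeks. Of 10 macrophage markers 10 rose at 8 weeks, with sums of 182 to 652 TPM in CAC, 53.0 to 190 TPM in Con and 24.3 to 99.3 TPM in NCAC, and 10 of 10 had risen at 4 weeks. Of 8 endothelial markers 7 rose and 1 fell at 8 weeks (163 to 279 TPM in CAC and 98.2 to 148 TPM in Con), and 0 of 8 passed at 4 weeks. At 8 weeks 5 of 7 smooth muscle and pericyte markers, 4 of 8 markers of fibro-adipogenic progenitors, 3 of 6 of adipocytes, 3 of 4 tested of neutrophils, 2 of 5 of satellite cells and 1 of 7 of Schwann cells rose. Of these lists, those of progenitors, adipocytes, satellite cells and Schwann cells were below the share of all genes. After rescaling, where 22.0% of all genes rose, 8 macrophage, 4 endothelial, 1 smooth muscle and pericyte, 2 progenitor, 3 adipocyte, 2 neutrophil, 1 satellite cell and 1 Schwann cell marker rose. The 1 lymphocyte marker tested fell, and 0 of 5 tested erythroid markers and 0 of 1 tested melanocyte marker passed. No marker of any list was at 0 in every library. The part of these cells in the levels of the 10 genes was not tested.

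The other genes of amino acid handling did not move as one. Of 33 other amino acid transporters listed 21 were tested, and 3, 13 and 14 rose over Con at 4, 6 and 8 weeks and 0 fell, where 23.0%, 51.8% and 65.3% of all genes rose, with a median change of 0.58 at 8 weeks beside 0.36 for all genes. Among them were Slc43a3, a purine carrier related to Slc43a1 (1.61, adjusted p = 1.72e-07 by limma), Slc15a4, a lysosomal histidine and peptide carrier (1.72, adjusted p = 6.25e-07), Slc7a6 (1.17) and, first by the comparison with NCAC, Slc7a7 (0.72) and Slc36a1 (0.58), a proton-coupled carrier of small amino acids. After rescaling 9 of the 21 rose and 2 fell at 8 weeks, where 22.0% of all genes rose and 22.6% fell. Of 20 glutamine and glutamate genes listed 18 were tested. At 8 weeks 6 rose and 4 fell, where 65.3% of all genes rose and 5.55% fell. The list had a median change of 0.12, below that of all genes. Ctps2 and Ctps, which use glutamine to make CTP, rose by 1.60 and 0.60. Gfpt2, which passes the amide of glutamine to a sugar, rose by 1.19, Cad of pyrimidine synthesis rose by 0.35 (0.02 after rescaling, adjusted p = 0.843, which ended its call), and Ppat, the first step of purine synthesis, fell by 0.42. After rescaling 3 of the 18 rose and 10 fell, beside the same 22.0% and 22.6% of all genes.

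Of 15 tested genes listed for serine, asparagine and proline synthesis 0 rose at 4 weeks, 2 rose and 1 fell at 6 weeks, and 6 rose and 1 fell at 8 weeks, with a median of 0.14. The rises were below the 23.0%, 51.8% and 65.3% of all genes called higher at 4, 6 and 8 weeks. Those named by the rule were the arginine synthesis pair Ass1 (0.69, adjusted p = 0.00182) and Asl (0.35), Cth of cysteine synthesis (0.65), Oat of ornithine metabolism (0.40) and Shmt2, the mitochondrial serine hydroxymethyltransferase (0.14, adjusted p = 0.0394). After rescaling 0 of this list rose and 7 fell, where 22.0% of all genes rose and 22.6% fell. Shmt2 was then lower by 0.27 (adjusted p = 0.000263), so the direction of Shmt2 and of the list depended on the scale. Asns and Psat1 are not counted in that list, so it holds no gene of asparagine synthesis, and it includes genes of arginine, cysteine and ornithine metabolism.

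Of 19 tested genes of the amino acid response, mostly ATF4 targets, 4, 10 and 14 rose at 4, 6 and 8 weeks and 0 fell. Of all genes 23.0%, 51.8% and 65.3% rose, so the counts at 4 and 6 weeks were near that share. The list also held Atf4 itself and Eif2ak3 and Eif2ak4, kinases that act upstream of ATF4. Its median change was 0.61 at 8 weeks beside 0.36 for all genes. After rescaling 7 of the list rose and 1 fell, where 22.0% of all genes rose and 22.6% fell. Ddit4, an inhibitor of mTORC1 that glucocorticoids also induce, rose from 8.15 to 234 TPM in the group means, a log2 change of 4.19 (adjusted p = 1.53e-06). Eif4ebp1, a repressor of translation initiation, rose by 2.43, Cebpb by 1.57, Jdp2 by 0.69 and Eif2ak4, the kinase GCN2 that senses uncharged tRNA, by 0.66. Of 20 cytosolic aminoacyl-tRNA synthetases 16 rose and 1 fell at 8 weeks, where 65.3% of all genes rose and 5.55% fell. Their median change was 0.28, below that of all genes, and after rescaling 1 rose and 6 fell. Vars rose by 0.92 (adjusted p = 1.63e-06) and by 0.52 after rescaling, while Kars (0.49), Farsb (0.43), Wars (0.29) and Hars (0.27) were not called higher after rescaling, where Hars fell by 0.14 (adjusted p = 0.0451).

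Of 31 genes of amino acid sensing to mTORC1 21 rose and 0 fell at 8 weeks, with a median of 0.27. On the rescaled values 6 rose and 12 fell, where 22.0% of all genes rose and 22.6% fell. The count of 21 was close to the 65.3% of all genes called higher. Seh1l of the GATOR2 complex rose by 0.61 (0.21 after rescaling), Mtor itself by 0.67 (0.27) and Fnip2 by 0.59 (0.30), and these calls held after rescaling. Rheb rose by 0.52 and Rragc by 0.61, and both calls were lost after rescaling (0.12, adjusted p = 0.207, and 0.21, adjusted p = 0.050007). Of 12 glucocorticoid response genes 11 rose and 0 fell at 6 and at 8 weeks, where 51.8% and 65.3% of all genes rose. Their median was 1.76 at 8 weeks. With rescaling 9 rose and 1 fell at 8 weeks, beside the 22.0% and 22.6% of all genes. Mt1 and Mt2, the metallothioneins, rose by 5.76 and 6.86, Cebpd by 3.99, Fkbp5, a co-chaperone of the glucocorticoid receptor, by 3.13 and Errfi1 by 1.77. The part of glucocorticoids in these changes was not tested. At 4 weeks 3 of 20 synthetases, 8 of 31 sensing genes and 4 of 12 glucocorticoid response genes had risen, where 23.0% of all genes had. The synthetases were below that share and the sensing genes near it. The lists of transport, ATF4 and glucocorticoid response had medians above that of all genes at 8 weeks, and those of synthesis, glutamine use, tRNA charging and sensing had medians below it. These lists were chosen with earlier results of these data known, and the medians carry no test.

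**Figure D4:**
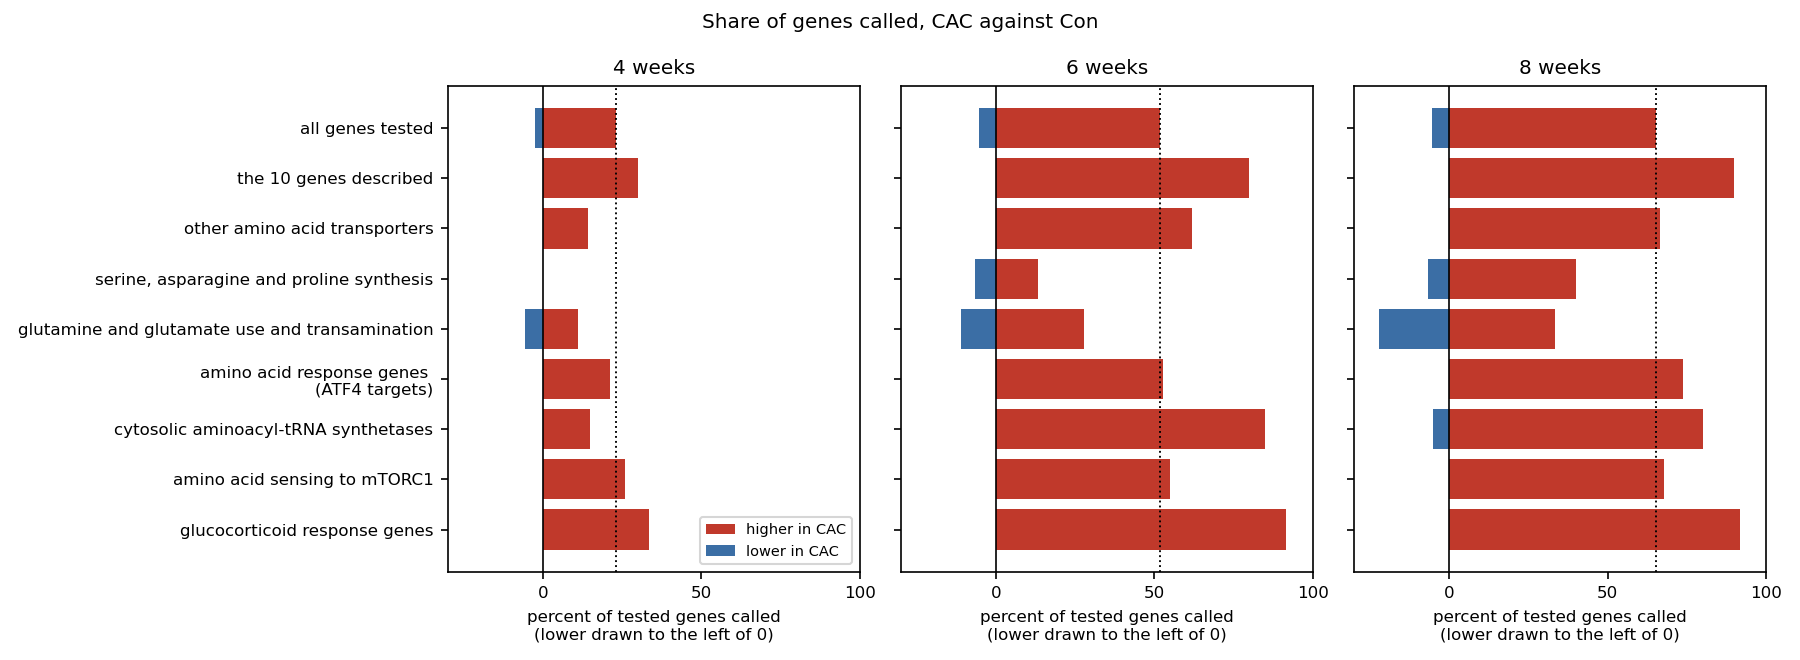
Percent of tested genes called higher (right of 0) and lower (left of 0) in CAC against Con at 4, 6 and 8 weeks, for all genes, the 10 genes described and the 7 lists. The dotted line is the share of all genes called higher, 65.3% at 8 weeks, and the lists of serine, asparagine and proline synthesis and of glutamine use stay left of it at each week.

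Genes with the most similar profile over the 12 group means were named for each of the 10 by Pearson's r of log2(TPM + 1), as a description in which all profiles share the same libraries. Slc3a2 was closest to Tsc1, a brake on mTORC1 (r = 0.998), Glul to Fmo2 (0.995), with Slc43a3 and Xdh next, and Slc38a2 to Cped1 (0.995). Slc43a1 was closest to Map1lc3b, the autophagosome protein LC3B (0.993), followed by Lpin1. Asns was closest to Armc10 (0.991), Psat1 to Vps26b (0.991), Slc1a5 to Adora1 (0.985), Slc7a8 to Edc3 (0.978) and Slc38a4 to Mapt (0.978). Slc7a5 had the loosest match, to Sf3a1 (0.926). Adora1 and Armc10 were each among the nearest 3 of 2 of the 10 genes.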

How the data were processed

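RNA of 62 gastrocnemius libraries was prepared with a stranded mRNA kit and sequenced on an Illumina NovaSeq instrument, per the labels' protocols, and the genome build was mm10, per the submitters' processing notes. The deposited table gives the authors' TPM for 47643 symbols, with a total of 1000000 per library. Which aligner, counter and annotation made the values is not given in the sources used here. Groups came from the descriptions and titles, because 1 treatment tag names cachectic cells for every library.

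Genes with at least 1 TPM in at least 5 libraries (12364) entered 1 linear model of log2(TPM + 1) in limma 3.58.1 (R 4.3.3), which fitted the 12 group means and let the variance follow mean expression. Changes, their SE and their 95% intervals are limma's, on that scale, and folds are on TPM + 1. Tests were two-sided, with Benjamini-Hochberg adjustment over all 12364 genes and a threshold of 0.05. There were 12 comparisons of groups and 3 F tests, and the comparisons with CAC share libraries. The method was tested on simulated data with 200 changed genes and independent noise. That setting had no shift shared by many genes of a library, so it does not speak to such shifts here.

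Reads were estimated from TPM and GENCODE exon lengths as whole multiples of the smallest step. Of recovered values of 1 to 20 reads, 77.89% to 79.6% were within 0.02 of a whole number, so no count test was run, and estimated reads describe counting error only. Promoters are from RefSeq, GRCm38.p6.

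The genes described and all lists were chosen with earlier results of these data known. From each of 7 pathway lists, up to 3 genes of lowest p called against Con at 8 weeks and up to 2 more called against NCAC at 8 weeks are named, with the 3 nearest profiles of each gene. The 60 pairs of libraries that share a replicate number within a week correlated by −0.299 to 0.295, and 16 exceeded 0.1. Their mean r ran from −0.168 (CAC and Con at 2 weeks) to 0.130 (CAC and NCAC at 4 weeks). Other numbers gave 0.042 and −0.033 there. Numbers were not taken to pair mice in the main fit, though such correlations cannot exclude pairing. As 8 alternatives, the fit was repeated with a pseudocount of 0.1, without the filter, with a filter at 5 TPM, with median-ratio scaling, with array weights, with a replicate block, without the mitochondrial genome and on only the groups compared. Each library was also left out in turn.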

Additional observations from a re-analysis of the deposited data

Results flagged for a closer look

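In 8 of 120 groups of a gene at a week (6.67%), 1 library lay apart from the others by Dixon's criterion, which chance alone meets in about 1 in 20 groups. Glul was lowest in CAC replicate 3 at 8 weeks, at 181 TPM with the next library at 620 TPM. Slc7a5 was lowest in Con replicate 4 at 8 weeks (1.39 TPM, next 2.48). Slc7a8 was highest in CAC replicate 1 at 6 weeks (24.6 TPM, next 10.2), and Slc3a2 in NCAC replicate 2 at 4 weeks (21.2 TPM, next 17.0). Slc1a5 was highest in CAC replicate 2 at 4 weeks (37.3 TPM, next 13.1) and in Con replicate 5 at 8 weeks (27.1 TPM, next 12.5). Slc38a4 was highest in NCAC replicate 1 at 2 weeks (18.7 TPM, next 15.9), and Slc43a1 in NCAC replicate 3 at 8 weeks (11.3 TPM, next 4.59).

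The difference between CAC and Con changed with the week for Glul (limma F test, adjusted p = 0.0309), from 0.21 at 2 weeks to 2.23 at 8 weeks on the log2 scale. It also did for Slc3a2 (adjusted p = 0.00984), from 0.31 to 1.19. Of all genes 12.1% passed this F test. After rescaling, and in a fit of only CAC and Con, 0 of the 10 genes passed it.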

How the results depend on the processing

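Over 120 results for single genes, 2176 alternative values were computed with limma. Of these, 2123 kept the side of the threshold (some changed sign), 37 lost the call, 16 gained 1 and 0 reversed it. Of 42 calls, 29 held in every alternative. Rescaling left 5 of the 8 calls against Con at 6 weeks. Array weights gave 2 calls against NCAC at 2 weeks where there had been 1 (Slc3a2, adjusted p = 0.0383), and a fit of only CAC and NCAC at 4 weeks gave 0 calls where there had been 3. The genes whose difference from Con changed with the week numbered 2. They were 1 without a filter, 0 after rescaling, 1 without the mitochondrial genome, 5 with array weights, 1 with the replicate block and 0 in a fit of only CAC and Con. The cause of these shifts was not tested. The replicate block changed no other count of calls among the 10 genes. The stricter filter did not test Slc7a5 and Psat1.

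With each library left out in turn, the calls against Con were 1 to 4 at 4 weeks, and those against NCAC 0 to 1 at 2 weeks and 0 to 5 at 4 weeks. Against NCAC at 4 weeks there were 0 without CAC replicate 2 and 5 without CAC replicate 1 or 5. The genes that changed with the week were 1 to 4: 4 without CAC replicate 3 at 8 weeks, and 1 without CAC replicate 6 or Con replicate 1 at 8 weeks, or CAC replicate 1 or Con replicate 5 at 2 weeks. The 9 calls against Con at 8 weeks held in all 12 refits. Single calls not named above changed as follows. Slc38a4 against NCAC at 4 weeks was lost in 6 of 10 refits, without a filter (adjusted p = 0.0747), without the mitochondrial genome (adjusted p = 0.0957) and after rescaling (adjusted p = 0.186), Slc38a4 against Con at 4 weeks also without Con replicate 4 (adjusted p = 0.0701), and Psat1 against NCAC at 8 weeks after rescaling (adjusted p = 0.0553). Psat1 against Con at 6 weeks was lost without a filter (adjusted p = 0.0549) and without the mitochondrial genome (adjusted p = 0.111). Slc38a2 against Con at 4 weeks was called without CAC replicate 1 (adjusted p = 0.0141) or 5 (adjusted p = 0.0303). Against NCAC at 4 weeks, Asns was called with a pseudocount of 0.1 (adjusted p = 0.0440), with the stricter filter (adjusted p = 0.0490) and without CAC replicate 1, 3 or 5 (adjusted p = 0.0302 to 0.0461), Slc38a2 without CAC replicate 1 (adjusted p = 0.0216) or 5 (adjusted p = 0.0396), and Glul without CAC replicate 5 (adjusted p = 0.0482). Asns was at most 2.80 TPM in Con and 2.52 TPM in NCAC, so it passed the stricter filter only through CAC libraries. Its call with that filter is therefore not separate support. Fitting only the groups compared ended the calls of Slc43a1 at 4 weeks (adjusted p = 0.0559) and Psat1 at 8 weeks (adjusted p = 0.0606) against Con.

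Among all genes, 35 were called against Con at 2 weeks, 390 with array weights and 2 in a fit of only these groups. Of 3134 at 4 weeks, 1822 were called after rescaling, 1691 without the mitochondrial genome, 1160 in a fit of only these groups and 758 without CAC replicate 2. At 6 weeks 7069 became 3866 and 4600 under the former pair, and at 8 weeks 8755 became 5517 after rescaling. Against NCAC, 145 at 2 weeks became 888 with array weights, 57 after rescaling, 52 without the mitochondrial genome and 14 without CAC replicate 4. At 4 weeks 2435 became 954, 768, 431 in a fit of only these groups and 274 without CAC replicate 2, and 1585 without a filter. At 6 weeks 8500 became 5084, and at 8 weeks 8939 became 5499, after rescaling. Of the genes called against Con, the higher ones made up 94.3%, 90.6%, 90.5% and 92.2% at 2, 4, 6 and 8 weeks and 80.0%, 51.3%, 45.8% and 49.4% after rescaling. Against NCAC they made up 98.6%, 91.9%, 93.2% and 93.4%, and 77.2%, 38.2%, 47.1% and 48.8% after rescaling. The 1497 genes whose difference from Con changed with the week became 949 without a filter, 527 after rescaling, 402 without the mitochondrial genome, 564 with the replicate block, 269 in a fit of only these groups, 5001 with array weights, 665, 861 and 854 without CAC replicate 1, CAC replicate 2 or Con replicate 4 at 2 weeks, 3109 without CAC replicate 2 at 4 weeks, and 3143 and 748 without CAC replicate 3 or Con replicate 4 at 8 weeks. With single libraries left out, the counts over all genes that moved by over 1.5 times ran from 7 (without CAC replicate 3) to 114 (without CAC replicate 1) against Con at 2 weeks, from 14 (without CAC replicate 4) to 417 (without CAC replicate 2) against NCAC at 2 weeks, from 274 to 1273 (without NCAC replicate 1) against NCAC at 4 weeks, and from 0 to 165, where there had been 73, across the weeks of Con. Depth limits Asns, Psat1 and Slc7a5 most.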
